A study of Homo sapiens with 2 samples.

Results

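The actin and tubulin genes examined here are the 9 genes whose symbols are ACTB, ACTG1, TUBA1A, TUBA1B, TUBA1C, TUBB, TUBB2A, TUBB2B and TUBB3. They were found in the deposited tables by symbol, a list drawn up with earlier results of these data known, and they matched 10 of the 55797 gene entries, because TUBB3 names 2 entries. Expression was measured by RNA-seq in 2 samples of H1 cells, an established human embryonic stem cell line, that had been differentiated to Stage 6, the last stage of a pancreatic protocol. Live cells were unfixed and unsorted, and their RNA was isolated with the RNeasy kit. Processed cells were fixed in paraformaldehyde, permeabilized with saponin, stained with antibodies and run through a cell sorter that kept every cell, and RNA was then isolated with the RecoverAll kit after a long digestion. The groups share the line, the stage, poly-A selection and paired reads of 80 nt. Each group has 1 sample, so no test between conditions was possible, and the effects of fixation, staining, sorting and the RNA kit cannot be told apart.

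Actin and tubulin are the building blocks of filaments found in every human cell. Actin monomers assemble into microfilaments that carry cell shape and contraction, while alpha- and beta-tubulin join as a dimer that assembles into microtubules, the tracks of intracellular transport and the fibres of the mitotic spindle. The genes form families of near-identical proteins called isotypes, and because nearly all cells transcribe ACTB and the common tubulins strongly, they are often used as reference genes. ACTB was the endogenous control of the qRT-PCR in the study, which asked whether intracellular staining and sorting alters the abundance of individual transcripts. Cells keep their tubulin mRNA in balance with free tubulin by a pathway that reads the first residues of the new chain and then degrades the mRNA, so these transcripts are under control after transcription as well.

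The sequences below show how alike the members are, which bears on how reads of 80 nt can be shared out among them. All coordinates are GRCh37/hg19, all stretches are coding exon sequence written along the gene's own strand, and positions in the coding sequence are counted from 1 at the A of the start codon. In the deposited tables the loci are chr7:5566782-5603415 for ACTB and chr17:79476997-79490873 for ACTG1, and, for the alpha-tubulins, chr12:49578579-49583107 for TUBA1A, chr12:49521565-49525180 for TUBA1B and chr12:49582519-49667114 for TUBA1C, so that TUBA1A and TUBA1C overlap. The beta-tubulin loci are chr6:30687978-30693203 for TUBB, chr6:3153903-3157760 for TUBB2A, chr6:3224517-3231964 for TUBB2B and chr16:89987800-90005169 for TUBB3. The canonical transcripts have 6 exons in the actins and 4 in the tubulins. The first 60 coding bases of the cytoplasmic actins are shown because the proteins differ mainly at their amino end. They lie in chr7:5569229-5569288 for ACTB and chr17:79479321-79479380 for ACTG1, both on the minus strand, and capitals mark the 10 positions at which they differ.
ACTB: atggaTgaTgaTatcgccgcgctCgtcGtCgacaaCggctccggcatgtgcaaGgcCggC
ACTG1: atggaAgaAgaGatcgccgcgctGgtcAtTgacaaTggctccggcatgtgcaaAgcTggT

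Over the whole coding sequence of 1128 bases, ACTB and ACTG1 were 91.2% identical with 99 differing positions, and the longest run they shared was 59 nt. A read of 80 nt from the coding sequence of one therefore matches the other only with mismatches. The first 30 coding bases of the tubulins are shown next, with the first 12 in capitals, since these encode the residues read in tubulin autoregulation. They span 1 exon junction in the alpha-tubulins, within chr12:49580590-49582762 for TUBA1A and chr12:49523479-49525083 for TUBA1B on the minus strand and chr12:49658965-49663274 for TUBA1C on the plus strand. The beta-tubulin stretches lie within 1 exon, in chr6:30688284-30688313 for TUBB and chr16:89989810-89989839 for TUBB3 on the plus strand, and in chr6:3157668-3157697 for TUBB2A and chr6:3227748-3227777 for TUBB2B on the minus strand.
TUBA1A: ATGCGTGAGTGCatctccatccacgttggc
TUBA1B: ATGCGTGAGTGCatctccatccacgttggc
TUBA1C: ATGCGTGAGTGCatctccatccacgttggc
TUBB: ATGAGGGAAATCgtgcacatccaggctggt
TUBB2A: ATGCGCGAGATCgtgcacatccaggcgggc
TUBB2B: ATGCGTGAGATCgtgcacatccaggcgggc
TUBB3: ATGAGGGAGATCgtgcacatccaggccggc

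The 3 alpha-tubulin stretches were the same letter for letter. Their coding sequences were between 95.9% and 97.2% identical, with at least 1 stretch longer than a read that is the same in TUBA1A and TUBA1B.

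TUBB2A and TUBB2B, neighbouring genes on chromosome 6, were the most alike pair, with 98.1% identity, 25 differing positions and a shared run of 725 nt. Their most different stretch of 90 bases, coding positions 139 to 228, is shown to mark where reads can tell them apart. It spans 1 exon junction within chr6:3155908-3156305 for TUBB2A and chr6:3226442-3226822 for TUBB2B, both on the minus strand, and holds 12 of the differing positions, in capitals.
TUBB2A: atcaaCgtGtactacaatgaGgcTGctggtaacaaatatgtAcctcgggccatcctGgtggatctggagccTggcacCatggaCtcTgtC
TUBB2B: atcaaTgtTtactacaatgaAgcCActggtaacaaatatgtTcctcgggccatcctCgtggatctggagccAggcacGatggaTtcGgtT

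TUBB and TUBB3 stood further apart, with 81.7% identity. The acidic tail of beta-tubulin, the part by which the isotypes differ most, is encoded by their last 75 coding bases, in chr6:30692100-30692174 for TUBB and chr16:90002138-90002212 for TUBB3 on the plus strand.
TUBB: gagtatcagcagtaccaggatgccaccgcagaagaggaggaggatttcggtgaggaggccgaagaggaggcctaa
TUBB3: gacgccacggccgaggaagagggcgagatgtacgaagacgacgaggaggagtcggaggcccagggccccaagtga

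Expression was given as FPKM, the fragments assigned to a gene scaled by its length and by the size of the library, with bounds on either side. What level the bounds cover is not stated, and they describe precision within a library, not the spread between cultures. FPKM summed to 510713 in live and 499398 in processed cells, with 16004 and 15957 genes at 1 or more. The smallest FPKM step of low genes, which stands for 1 fragment, was 1.07 times larger in processed cells. From these steps and the length of the canonical transcript of each gene, about 8160 to 379000 fragments stood behind each of the 9 main entries in live cells and about 6890 to 287000 in processed cells. Over genes at 1 or more in both libraries, processed FPKM divided by live FPKM had a median of 0.932, a shift of -0.10 on the log2 scale. Fewer cells of a type and less RNA per cell cannot be told apart in such bulk samples.

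Actin and tubulin levels in processed cells were close to those in live cells. Of the 9 main entries, 8 were lower and 1, TUBB2B, was higher in processed cells, with bounds that did not overlap, and 0 differed by 2-fold. On the log2 scale of (FPKM + 1), processed against live, the members ranged from -0.34 for TUBB to 0.10 for TUBB2B with a median of -0.14. Across the 14635 genes that reached 1 FPKM in both libraries the median was -0.09. Of the 17326 genes that reached 1 FPKM in either library, 12.8% passed 2-fold, 43.7% had separate bounds and were lower in processed cells, and 28.1% had separate bounds and were higher. All members but TUBB2A had a mean FPKM over 100, so genes of that class are a closer background. Of its 646 genes, 1.86% passed 2-fold, 51.9% were lower and 24.0% were higher with separate bounds, while of the 8 members in that class 0 passed, 7 were lower and 1 was higher. The median of those 8 was -0.18 against -0.07 for the 646 genes, whose quartiles were -0.19 and 0.06.

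**Figure D1:**
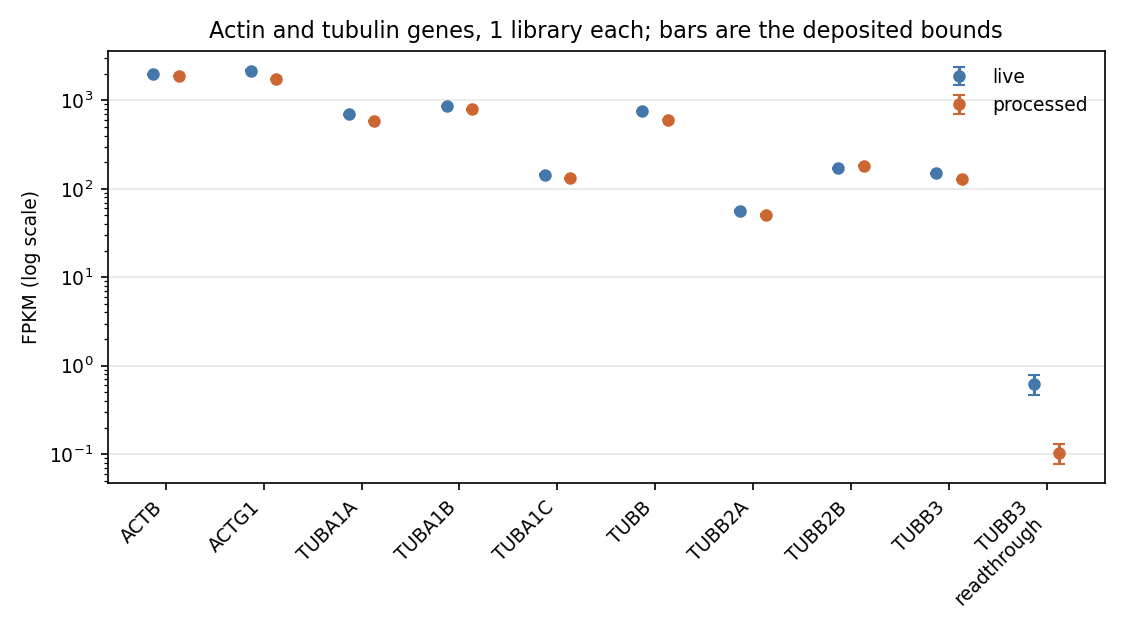
FPKM of the 10 entries in live and processed cells on a log axis, with the deposited bounds as bars, most of which are smaller than the points. ACTB and ACTG1 sit highest, TUBB2A is the lowest of the 9 main entries at 56.6 and 51.1, and the readthrough entry of TUBB3 lies far below at 0.621 and 0.104.

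ACTB, a cytoplasmic actin, had an FPKM of 1970 (bounds 1962 to 1979) in live and 1879 (1871 to 1888) in processed cells. The bounds were separate, the difference was -4.62% of the live value or -0.07 on the log2 scale, and ACTB ranked 22 among all genes in both libraries. ACTG1, the other cytoplasmic actin, had 2175 (2164 to 2186) in live and 1753 (1743 to 1764) in processed cells, a difference of -0.31 on the log2 scale. Its rank went from 15 to 23. Of the 646 highly expressed genes, 50.8% had a lower log2 difference than ACTB, whereas 11.6% had a lower one than ACTG1.

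The order of the actins therefore turned. ACTG1 was above ACTB in live cells and ACTB above ACTG1 in processed cells, and in neither library did their bounds overlap. The ratio of ACTB to ACTG1 was 0.906 (0.897 to 0.915 from the bounds) in live and 1.07 (1.06 to 1.08) in processed cells, 1.18-fold apart. ACTB made up 47.5% of the FPKM of the pair in live and 51.7% in processed cells. A ratio within a library does not depend on how the libraries are scaled to each other. ACTG1 held no 80 nt window in common with another member, and ACTB shared 0.929% of its windows with the pseudogene ACTBP2.

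The alpha-tubulin genes lie together on chromosome 12. TUBA1B, the most abundant of them here, had an FPKM of 867 (862 to 872) in live and 791 (786 to 796) in processed cells. TUBA1A, the isotype prominent in developing neurons, had 697 (691 to 704) and 584 (578 to 591), the larger difference of the pair at -0.25 against -0.13 on the log2 scale. TUBA1C had 145 (143 to 147) in live and 132 (129.5 to 134) in processed cells, or -0.14. All 3 were lower in processed cells, with differences from -8.74% to -16.2% of the live value.

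Within the family, TUBA1A went from 40.8% to 38.8% of the alpha-tubulin FPKM and TUBA1B from 50.7% to 52.5%. TUBA1C made up 8.50% in live and 8.74% in processed cells, a difference whose range from the bounds spanned 0. Its ratio to TUBA1B, 0.168 in live and 0.167 in processed cells, also overlapped, while that of TUBA1A to TUBA1B, 0.804 and 0.739, did not. Of the 80 nt windows of the longest transcript, 17.9% in TUBA1A, 19.7% in TUBA1B and 16.8% in TUBA1C also occurred in another member, so the split of reads among these genes rests partly on the assignment by the authors' software.

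Among the beta-tubulins, TUBB, the isotype found in most tissues, was the most abundant. It had an FPKM of 753 (748 to 757) in live and 596 (593 to 599.7) in processed cells, which at -0.34 was the most negative log2 difference among the 9 main entries. Of the 646 highly expressed genes, 10.1% had a lower value. TUBB2B, a neuronal isotype, had 170.2 (168 to 172) in live and 182 (180.2 to 184) in processed cells, 0.10 on the log2 scale and above 80.3% of those genes. TUBB and TUBB2B thus mark the ends of the range, and their ratio was 4.42 in live and 3.27 in processed cells.

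TUBB2A, the near-copy of TUBB2B, lay at 56.6 (55.3 to 57.9) in live and 51.1 (49.9 to 52.4) in processed cells, with a log2 difference of -0.14. The pair thus differed from live cells in opposite directions, although 34.0% of the windows of TUBB2A and 23.6% of those of TUBB2B occur in another member. Summed, TUBB2A and TUBB2B came to 227 in live and 233 in processed cells, a ratio of 1.03. The ratio of TUBB2A to TUBB2B was 0.333 (0.321 to 0.344) in live and 0.281 (0.271 to 0.291) in processed cells. Reads from the windows they share cannot be assigned to 1 gene of the pair by sequence. Smaller parts of both genes also occur outside the pair, so ambiguous reads touch the sum as well. The pseudogene TUBB2BP1 holds 6.69% of TUBB2A and 6.31% of TUBB2B windows, and TUBB3 holds 4.22% and 2.93%.

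TUBB3, the beta-tubulin used as a marker of neurons, had 149 (147 to 151.5) in live and 129 (127 to 131) in processed cells, or -0.21 on the log2 scale. The neighbours TUBB3 and TUBA1C in the order of levels changed places, but in processed cells their bounds overlapped. Every other neighbouring pair in the order was separate in both libraries. A further entry named TUBB3, which GENCODE marks as a readthrough transcript with the neighbouring gene MC1R, had 0.621 (0.466 to 0.777) in live and 0.104 (0.0779 to 0.130) in processed cells. It lay under an FPKM of 1 in both and was left out of the counts, and 92.6% of the windows of the canonical TUBB3 transcript occur in it as well.

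Markers of neurons differed in both directions but were more often lower than higher. Of the isotypes linked to neurons above, TUBA1A and TUBB3 were lower and TUBB2B was higher. Of the 11 neuronal markers, all of which reached 1 FPKM, 7 were lower, 2 were higher and 2 overlapped. Among the 17326 genes that reached 1 FPKM in either library, 43.7% were lower and 28.1% higher. The median log2 difference of the markers was -0.49, and their summed FPKM was 90.3 in live and 70.4 in processed cells. With processed FPKM divided by the median ratio, 7 were still lower and 2 higher, beside 35.7% and 34.8% of the 17326 genes. NEFM, a neurofilament subunit, had 18.3 and 12.3, and INA, an intermediate filament protein of neurons, had 8.39 and 2.90. SNAP25, a protein of vesicle release, was higher with 5.95 and 8.88. SYT1, the other higher marker, named after its values were seen, had 1.74 and 2.87. MAP2, DCX and STMN2 belong both to this list and to the microtubule binding list. None was listed at 0. Their part in the values of TUBB3, TUBA1A and TUBB2B was not tested.

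**Figure D2:**
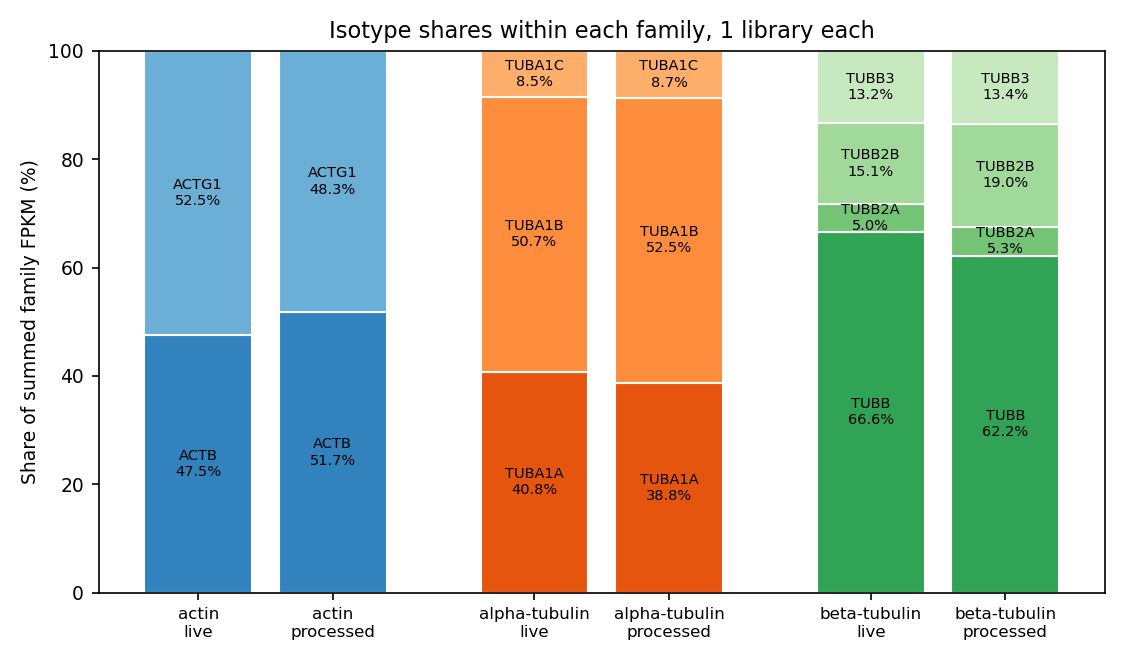
Percentage of the summed FPKM of each family contributed by its members in live and processed cells. The readthrough entry of TUBB3 is not drawn but counts in the beta-tubulin sum. ACTB goes from 47.5% to 51.7% of actin and TUBB from 66.6% to 62.2% of beta-tubulin, with TUBB2B going from 15.1% to 19.0%.

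Summed over each family, actin had an FPKM of 4145 in live and 3633 in processed cells, a ratio of 0.876. Alpha-tubulin had 1709 and 1507, a ratio of 0.882, and beta-tubulin 1129.5 and 959, a ratio of 0.849. The 10 entries together made up 1.37% of all FPKM in live and 1.22% in processed cells. The ratios of the families thus lay close together, while within beta-tubulin the isotypes ran from -20.8% for TUBB to 7.12% for TUBB2B. TUBB2A took 5.01% of beta-tubulin in live and 5.33% in processed cells, and TUBB3 took 13.2% and 13.4%, the latter with a range that spanned 0.

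**Figure D3:**
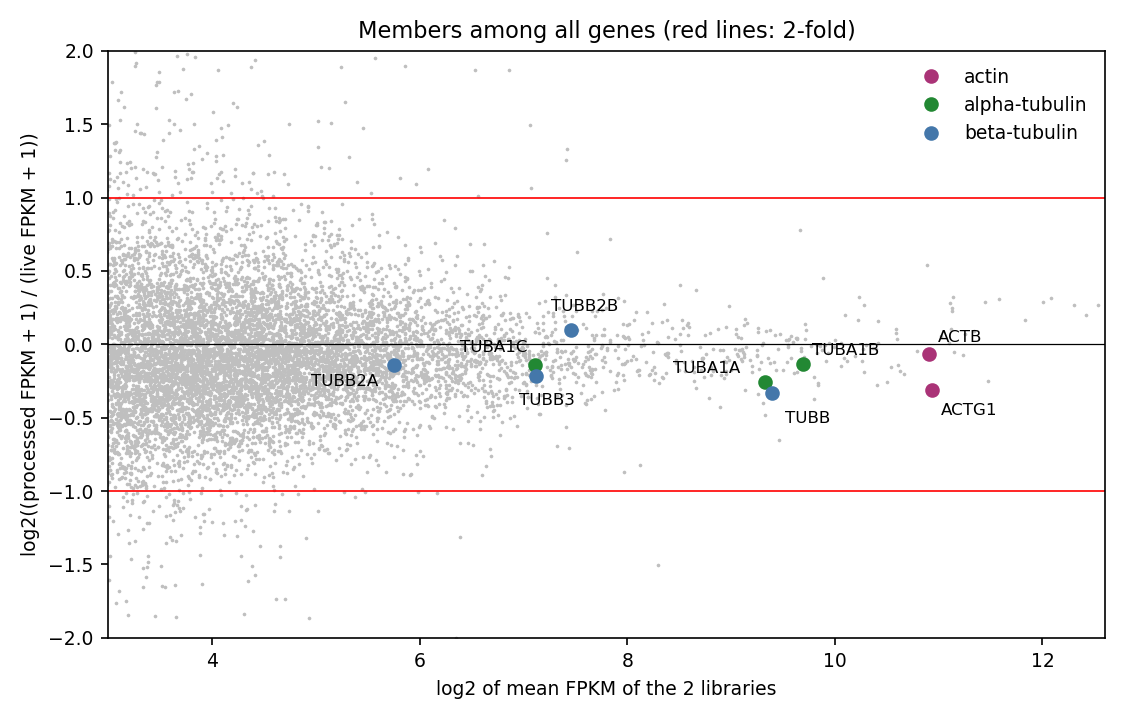
Log2 ratio of processed to live (FPKM + 1) against the log2 of the mean FPKM of both libraries, for genes in grey and the 9 main entries in colour. The horizontal axis starts at 3 and the vertical axis is limited to 2 either side of 0. All 9 members lie between -0.34 and 0.10, inside the 2-fold lines, and 8 lie below 0.

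Because the median gene was also lower in processed cells, the direction of the smallest differences depends on how the libraries are scaled. With processed FPKM divided by the median ratio, ACTB came to 0.03 on the log2 scale, turning from lower to higher, and TUBA1C and TUBB2A came to -0.04 each with overlapping bounds. The bounds of the 9 main entries were then separate and lower in 5, separate and higher in 2 and overlapping in 2. Among the 17326 genes the shares became 35.7% lower and 34.8% higher, and among the 646 highly expressed genes 30.3% lower and 43.5% higher. On that scale TUBB at -0.23, ACTG1 at -0.21, TUBA1A at -0.15 and TUBB3 at -0.11 were still lower with separate bounds, TUBA1B was at -0.03, and TUBB2B was higher at 0.20. When each value was divided by ACTB of the same library, as in the qRT-PCR of the study, ACTG1 stood at -0.24, TUBA1A at -0.19, TUBB at -0.27 and TUBB2B at 0.17. ACTB thus lay nearer to the median gene than ACTG1, TUBB or TUBA1A did, but TUBA1B, TUBA1C and TUBB2A lay about as near as ACTB.

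**Figure D4:**
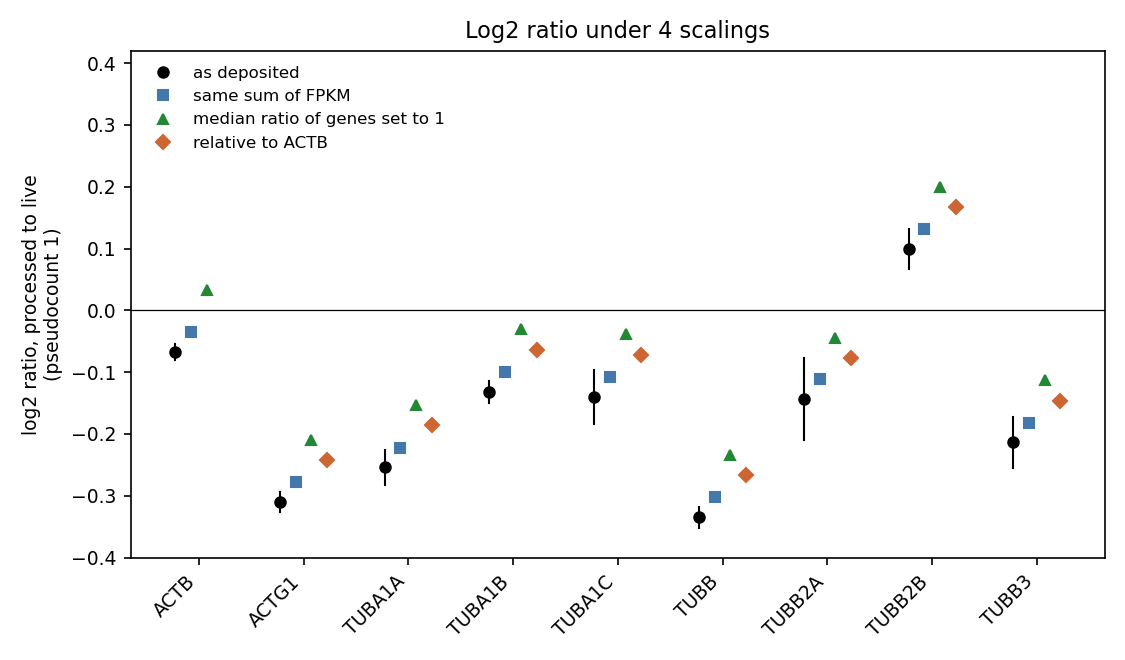
Log2 ratio of processed to live for each of the 9 main entries under the deposited FPKM and the 3 other scalings. ACTB is at -0.07 as deposited and at 0.03 after division by the median ratio. TUBB2B stays above 0, and all members but ACTB and TUBB2B stay below 0, under every scaling shown.

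Genes often used beside ACTB as references in qRT-PCR lay in a similar range. Of the 14 genes in that list, 8 were lower, 5 higher and 1 overlapped, 1 passed 2-fold, and the median was -0.07. The shares over the 17326 genes were 43.7% lower, 28.1% higher and 12.8% past 2-fold. With processed FPKM divided by the median ratio, 5 were lower, 6 higher and 0 passed 2-fold. GAPDH, the glycolytic enzyme, had 2479 in live and 2353 in processed cells, and RPL13A, a ribosomal protein gene, had 1122 and 1050.4. RPLP0, also ribosomal, had 999 and 825. PGK1 with 353 and 308, PPIA with 337 and 322 and YWHAZ with 256 and 221 were lower, and B2M, the light chain of class I histocompatibility molecules, was higher with 125 and 142. TFRC, the transferrin receptor, had the most negative log2 difference of the list, with 14.1 and 6.19.

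Pseudogenes and overlapping genes can take reads from the members. Pseudogenes were searched for by names starting with ACTBP, ACTG1P, TUBA1AP, TUBA1BP, TUBA1CP, TUBAP or TUBBP, and of the 19 found, 5 reached 1 FPKM. Those named for TUBB2A, TUBB2B or TUBB3, such as TUBB2BP1, were outside this search. TUBBP1 had 76.2 in live and 51.2 in processed cells, lower as TUBB was, and 5.79% of TUBB windows occur in it. A further 13.8% of TUBB windows occur in an overlapping lncRNA of GENCODE 44. TUBB and TUBBP1 together had a ratio of 0.781. ACTBP2 had 15.0 and 20.4, higher whereas ACTB was lower. ACTBP11 had 0.970 and 2.50, TUBBP2 1.05 and 0.177, and TUBBP5 0.201 and 1.36. The antisense entry RP11-386G11.10, named TUBA1B-AS1 in GENCODE 44, overlaps TUBA1B and had 12.4 and 22.4, and 45.2% of TUBA1B windows occur in its transcripts. Whether the counting used strand is not stated, and without strand, reads of the pair from those windows cannot be told apart by sequence. TUBA1B and this entry together had a ratio of 0.925. The other overlapping entries had low values, since RP11-161H23.5, which overlaps TUBA1C, had 0.227 and 2.98, and RP13-766D20.2, which overlaps ACTG1, had 1.44 and was listed at 0. PSMG4, which overlaps TUBB2B, had 4.85 and 5.79 with overlapping bounds.

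**Figure D5:**
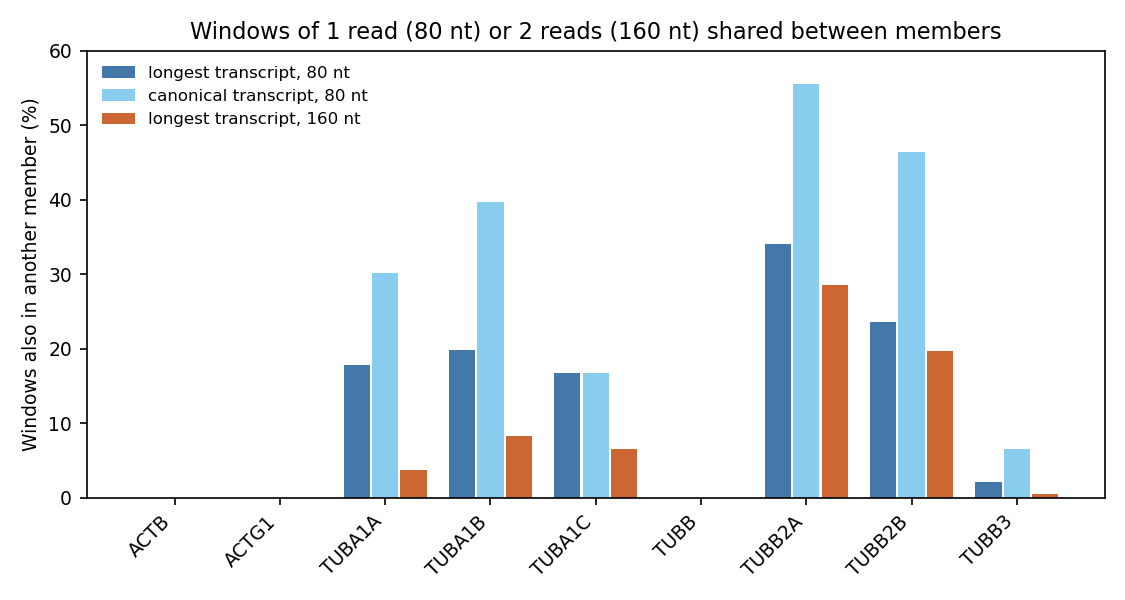
Percentage of the 80 nt windows of each member's transcript that also occur in a transcript of another member, as bars for the longest and the canonical transcript and for windows of 160 nt. TUBB2A has 34.0% in its longest transcript and 55.6% in its canonical one, ACTB, ACTG1 and TUBB have 0, and TUBB3 has 2.13% and 6.52%.

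The other actins were far less abundant than ACTB and ACTG1. Of 5 other actins, 3 reached 1 FPKM, 2 lower and 1 higher, with a median of -0.53. The shares over the 17326 genes were 43.7% lower, 28.1% higher and 12.8% past 2-fold. ACTC1, the cardiac actin, had 28.4 in live and 19.3 in processed cells, ACTA2, the smooth muscle actin, had 6.10 and 2.43, which passed 2-fold as deposited but not after division by the median ratio, and ACTA1, the skeletal muscle actin, had 6.49 and 9.49. Beside ACTA2, the 8 mesenchymal and smooth muscle markers, ACTA2 among them, gave 7 past the filter with 3 lower, 3 higher and 1 overlapping, a median of -0.04 and sums of 181 and 168. TAGLN, an actin-binding protein of smooth muscle, had 98.3 and 88.4, and DES, the muscle intermediate filament desmin, had 0.0528 and 1.58. DES passed the filter only through its processed value. With an FPKM of at least 10 required, 2 of these markers were lower and 2 higher. Their part in the value of ACTA2 was not tested.

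Of 15 other tubulins, 10 passed the filter, 4 higher, 4 lower and 2 overlapping, with a median of 0.07. The shares over the 17326 genes were 28.1% higher, 43.7% lower and 12.8% past 2-fold. TUBB4B, a widely expressed beta isotype, had 129.6 in live and 125 in processed cells. TUBB8, known from oocytes, had 0.118 and 2.89, and TUBB1, known from platelets and named after its values were seen, had 0.150 and 1.30, and these 2 passed 2-fold. TUBD1, delta-tubulin of centrioles, was at the other end with 12.9 and 7.90. TUBB8 and TUBB1 lay under 1 FPKM in live cells and passed the filter only through their processed values. With an FPKM of at least 10 required, 0 of the list passed 2-fold, 1 was higher and 3 were lower. TUBB4B alone among the 15 exceeded the level of TUBB2A.

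Newly made actin and tubulin fold in the CCT chaperonin with the help of prefoldin, and tubulin then passes through the cofactors TBCA to TBCE. Of 19 genes in this folding list, 11 were lower, 5 higher and 3 overlapped, 0 passed 2-fold, and the median was -0.21. Over the 17326 genes, to set beside these counts and those of its subsets, 43.7% were lower, 28.1% higher and 12.8% past 2-fold. All 8 CCT subunits had separate bounds, 6 lower and 2 higher, with sums of 928 in live and 799 in processed cells. TCP1, the first subunit, had 127 and 77.3, CCT7 had 109 and 78.7, CCT5 had 135 and 103, and CCT2 had 167 and 142.5. CCT3, with 97.2 and 122, and CCT6A, with 115 and 132, were higher. Of the 6 prefoldin genes 4 were lower and 2 higher, led by PFDN5 with 317 and 274. Of the 5 cofactors 1 was lower, 1 higher and 3 overlapped, with TBCA at 125 and 119.7 and TBCD at 25.5 and 38.2.

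Actin-binding genes are the partners that hold monomers or build filaments. Of 19 genes, 10 were lower, 6 higher and 3 overlapped, 0 passed 2-fold, and the median was -0.16. The shares over the 17326 genes were 43.7% lower, 28.1% higher and 12.8% past 2-fold. TMSB10 and TMSB4X, thymosins that bind actin monomers, were higher, with 1289 in live and 1440 in processed cells and with 672 and 700.2. PFN1, a profilin, was also higher with 364 and 402. CFL1, cofilin, which severs filaments, had 515 and 540.1. PFN2, the neuronal profilin, was lower with 120.5 and 108, DSTN, a relative of cofilin, had 128 and 126, and ARPC3 of the Arp2/3 nucleation complex had 137 and 129. Of the 8 genes of that complex, 5 were lower, 1 higher and 2 overlapped. The ends of the list were both capping protein subunits, CAPZA2 with 43.5 and 25.6 and CAPZA1 with 47.1 and 55.6.

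Of 17 microtubule-binding genes, 15 passed the filter, 9 lower, 5 higher and 1 overlapping, with a median of -0.08. The shares over the 17326 genes were 43.7% lower, 28.1% higher and 12.8% past 2-fold. After division by the median ratio 5 of the list were lower and 5 higher, beside 35.7% and 34.8% of the 17326 genes. STMN1, stathmin, which binds tubulin dimers, was the most abundant with 596 in live and 632 in processed cells. TPPP3, a protein that promotes tubulin polymerization, had 7.15 and 10.6, and STMN2, the neuronal stathmin, had 14.8 and 10.2. None of these 15 genes passed 2-fold.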

How the data were processed

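Per the labels and the study's methods, poly-A RNA libraries of live and processed Stage 6 cells were read as paired reads of 80 nt. The authors aligned reads with STAR 2.2.0c to GRCh37/hg19 guided by GENCODE 14 and deposited FPKM with lower and upper bounds per gene from Cufflinks or Cuffdiff 2.0.2, which share out ambiguous fragments by maximum likelihood. Read counts were not used here. From these FPKM values, entries were joined by gene identifier, and log2((processed FPKM + 1)/(live FPKM + 1)), shares within families and ratios between members were computed with Python 3.11.15, numpy 2.4.6 and pandas 2.3.3. Genes were counted if they reached 1 FPKM in either library. Lower and higher mean that the deposited bounds did not overlap, and ranges of ratios and shares combine these bounds. With 1 sample per group there was no test. Fragment numbers were estimated from steps in low FPKM values with 170 nt taken off each length. Shared windows, coding identity and sequences came from GENCODE 44 mapped to GRCh37, with Biopython 1.88, in which all 10 entries were found by identifier. The calculations were tested on simulated data. The members and the 11 gene lists were chosen with earlier results of these data known. Named genes are the members, genes overlapping a member and, of the pseudogenes searched for, those at 1 or more. In each list they are every gene with an FPKM of at least 100 in a library or otherwise its highest gene. The list's largest differences in either direction are also named. Alternatives covered pseudocount, filter, scaling, width of the bounds and the genes counted in a family. The canonical transcript, windows of 160 nt and leaving out the readthrough entry were added after seeing the data. Some genes and sequences that this rule would name are not reported here.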

Additional observations from a re-analysis of the deposited data

How the results depend on the processing

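Each group has 1 sample, so no replicate could be left out, and no difference between cultures can be judged. No paired analysis was possible because each group has 1 sample. No alternative put any of the 9 main entries past 2-fold. ACTB reversed to 0.033 on the log2 scale when processed FPKM was divided by the median ratio. The members' median of -0.14 became -0.11 with FPKM rescaled to the same sum, -0.044 after division by the median ratio and -0.076 after division by ACTB. The share of TUBB in beta-tubulin, processed minus live, was -4.42 percentage points, -5.33 with the minor isotypes counted and -3.39 with the pseudogenes counted, and that of TUBB2B was 3.95 and became 2.98 with the minor isotypes. The lists hold 121 distinct genes before the filter. Over all lists, 7 genes passed 2-fold, and 1 did with an FPKM of at least 10 required. Genes below that level in both libraries are then not counted. Over the 17326 genes, 12.8% passed 2-fold, 43.7% were lower and 28.1% higher. After division by the median ratio 5 list genes passed 2-fold, ACTA2 and TFRC no longer among them. The 56 lower and 37 higher genes of the lists became 43 and 42, beside 35.7% lower and 34.8% higher of the 17326 genes. In the canonical in place of the longest transcript, the windows that occur in another member made up 30.1% in place of 17.9% for TUBA1A, 39.7% in place of 19.7% for TUBA1B, 55.6% in place of 34.0% for TUBB2A and 46.3% in place of 23.6% for TUBB2B. With windows of 160 nt they were 3.73%, 8.33%, 28.5% and 19.6%. The share of TUBB3, whose difference of 0.20 points had a range spanning 0, changed sign to -0.15 with the minor isotypes. ACTB and this share were the values that changed sign.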

Other observations

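The remaining marker lists describe the culture in which the actin and tubulin genes were measured. The shares over the 17326 genes, to set beside these counts, were 28.1% higher and 43.7% lower. All 8 pancreatic endocrine markers had an FPKM of at least 1 in both libraries, 3 higher, 1 lower and 4 overlapping, with a median log2 difference of 0.06. CHGA, a protein of secretory granules, had 1794 in live and 1741 in processed cells, where its status in the deposited table was FAIL. The hormone genes SST, GCG and INS had 243 and 266, 135 and 131, and 98.3 and 121. CHGB, another granule protein, had 6.56 and 3.16. Of the 5 progenitor markers, 2 were higher, 2 lower and 1 overlapped, led by SOX9 with 82.4 and 85.3, with PDX1 at 66.5 and 72.1 and ONECUT1 at 31.2 and 17.4. Of the 4 pluripotency markers, 2 were lower, 1 higher and 1 overlapped. LIN28A had 119 and 88.7, and NANOG had 1.27 and 7.34.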
